A study of Arabidopsis thaliana with 18 samples.

Results

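The vesicle traffic genes described here are 19 probe sets of the Affymetrix ATH1 array. Each is paired by the platform gene table with 1 gene whose symbol starts with VPS, SYP, VAMP, EXO70 or RAB, or with SEC and a digit. They were chosen by name alone, from 22746 non-control probe sets of which 13513 are paired with 1 gene. Of the 19 members, 10 are VPS genes, 8 are SEC genes and 1 is a RAB gene, and 0 probe sets met the rule for SYP, VAMP or EXO70. A mean log2 signal under 4.31 over the 18 arrays, a signal of 19.9, marked a member as low, and 2 members, SEC5B and VPS24.2, were low. The other 17 are called the clearly measured members.

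All samples were Arabidopsis thaliana, accession Cvi-1. One treatment was 0.30 mM salicylic acid (SA), which activates defence in plants, given in 0.02% silwet, an organosilicone surfactant, on 9 arrays. The other was 0.02% silwet without SA, also on 9 arrays, so that silwet is shared by both groups. The titles number the arrays in series, 28 to 36 for SA and 19 to 27 for silwet, and give replicate numbers 1 to 3 that recur 3 times in each treatment, which divides the arrays into 3 serial blocks of 6. Block 1 holds arrays 28 to 30 (SA) and 19 to 21 (silwet), block 2 holds arrays 31 to 33 (SA) and 22 to 24 (silwet), and block 3 holds arrays 34 to 36 (SA) and 25 to 27 (silwet). The titles also hold an identifier, which is lowest in replicate 1 and highest in replicate 3 throughout both treatments and all blocks. The sources used here do not give the meaning of the blocks, replicate numbers and identifiers, the tissue or the time of harvest. Since nothing says that the samples came from separate plants, the p-values measure only how far these arrays spread, and that spread may be technical.

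Cells move proteins between membranes in vesicles, which are tethered to their target by complexes such as the exocyst and then fused with it by SNARE proteins and their Sec1/Munc18 partners. RAB GTPases mark the membranes, and exchange factors switch the RAB proteins on. At endosomes the ESCRT complexes sort ubiquitinated membrane proteins into inner vesicles for breakdown in the vacuole. In plants, secretion at the plasma membrane and endosomal sorting of receptors both take part in defence, the setting in which SA acts.

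By role, the members are 6 exocyst subunits (SEC5A, SEC5B, SEC6, SEC10, SEC15A and SEC15B) and SEC1B, a Sec1/Munc18 relative of the cytokinesis gene KEULE. In Golgi traffic they are SEC22, a SNARE of transport between the endoplasmic reticulum and the Golgi, and RAB6A, a Golgi RAB GTPase. At endosomes they are VPS9B, a relative of the RAB5 exchange factor VPS9A, the ESCRT-II subunit VPS22, and 8 genes of ESCRT-III and related proteins. In yeast VPS20 starts the ESCRT-III polymer, and VPS24 and VPS2 complete it. VPS46.2, also called CHMP1A, and the VPS60 genes belong to the ESCRT-III-related group.

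Several arrays stood apart before any member was considered. UGT76B1, a glycosyltransferase that conjugates SA and a marker of SA treatment, had signals of 1238 and 1552 in SA arrays 28 and 30 but 41.2 in SA array 29. It had 1540 in array 20, which is labelled silwet, and at most 77.6 in every other array. GRX480, a glutaredoxin gene that SA induces, had 613 and 701 in SA arrays 28 and 30, 167 in SA array 29 and 733 in silwet array 20. WRKY53, a transcription factor gene of defence and senescence, had 715, 511, 146 and 442.7 in the same 4 arrays. Arrays 29 and 20, both of replicate 2 in block 1, therefore go against their labels in all 3 markers. The 3 markers were chosen because earlier results of these data showed them high in arrays 20, 28 and 30. That they agree on these arrays was thus fixed by the choice and is no independent support. Whether their labels were exchanged was not tested, and no array was relabelled, so every SA and block difference below holds for the treatments as labelled. Results that rest on block 1 are given with and without these arrays. In blocks 2 and 3 the SA and silwet arrays overlapped in all 3 markers. There UGT76B1 had 10.3 to 54.0 in SA and 10.6 to 76.8 in silwet. GRX480 had 68.1 to 163 and 96.0 to 201, and WRKY53 had 55.6 to 122 and 71.8 to 180. The SA comparisons within those blocks therefore concern arrays that these markers do not separate. The leaf genes LHCB4.1 and RCA had signals of at least 2430 and 1760 in all 18 arrays, and the root hair genes EXPA7 and EXPA18 at most 16.1 and 16.3. Median signal per array was 31.7 to 38.7 after the authors' scaling. In bulk RNA, fewer cells of a type and less RNA per cell cannot be told apart.

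Among themselves the members ranged from nearly constant to strongly variable. The clearly measured members had a median SD of 0.35 log2 over the 18 arrays, close to 0.33 over the 13648 probe sets at or above the same level. RAB6A and SEC22 were the steadiest, with SDs of 0.17 and 0.18 log2 and highest-to-lowest ratios of 1.56 and 1.61. VPS60.1 varied most, with an SD of 0.77 log2, a ratio of 6.66 and an SD above that of 94.8% of those probe sets. SEC10 followed with a ratio of 5.18 and SEC1B with 3.52, both highest in array 30 and lowest in SA array 34. Their signals in array 34 were 66.8 and 26.6, and their next lowest were 114 and 33.7. Array 34 was the lowest array for 4 of the 17 clearly measured members, the most of any array, and the highest for RAB6A, at 417. The share of all probe sets lowest in array 34 was not computed, so the count is no result about the members. Array 34 also had the lowest median signal, 31.7, the largest share of signals under 16, 38.8%, and the highest ubiquitin 3′ to 5′ ratio, 3.71. The part of these measures in the low signals was not tested. The low member VPS24.2 had signals of 0.18 to 3.53, where a MAS5 signal carries little information, and no direction is read from it.

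Arrays 20, 28 and 30 were the extreme arrays for many members. They were the 3 highest of 18 arrays for 6 of the 17 clearly measured members (35.3%), against 1453 of the 13648 probe sets at that level (10.6%). The exocyst gene SEC10 had signals of 253 to 346.2 in these 3 arrays and 66.8 to 204 in the other 15. SEC15B had 108 to 162, against 54.9 to 103 elsewhere. SEC22 was higher there too, at 428 to 481, against 298 to 381. Among the ESCRT-III genes, VPS2.1 had 283 to 301, against 140 to 239 in the other arrays, and VPS20.1 had 202 to 271, against 114 to 184. VPS60.1 had 144 to 279 there and 41.8 to 138 elsewhere. VPS9B ran the other way, with its 3 lowest signals, 21.3 to 35.5, in these arrays and 39.1 to 57.3 elsewhere. That makes 1 of 17 members, and 13.6% of the probe sets at that level had their 3 lowest signals there. The arrays were singled out by their SA marker signals, so these values are a description without a test. The map of all members by array shows this as 3 columns of block 1.

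**Figure D1:**
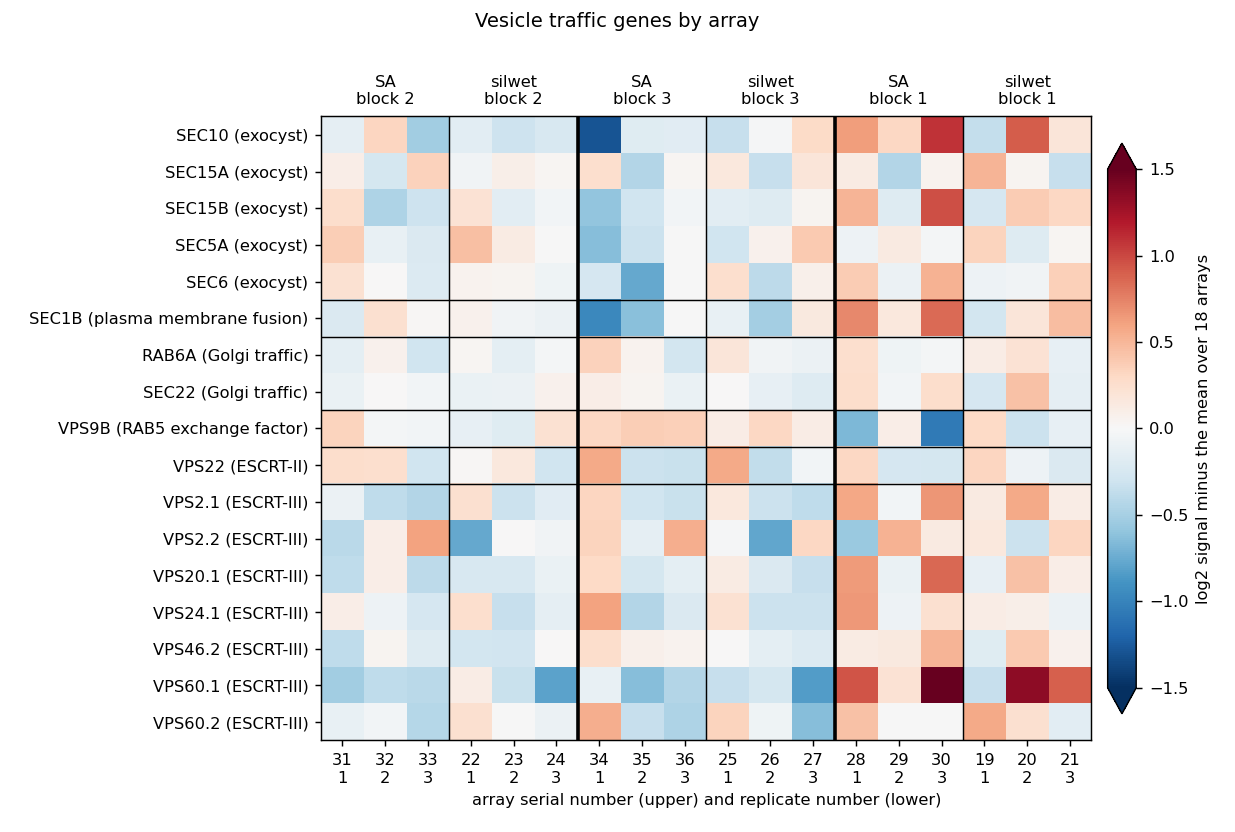
Log2 signal of the 17 clearly measured members (rows, grouped by role) in 18 arrays (columns, by serial block and treatment), each minus the gene's mean over the arrays. SEC10, SEC15B, SEC22, VPS2.1, VPS20.1 and VPS60.1 are highest, and VPS9B lowest, in arrays 28 and 30 (SA) and 20 (silwet), all of block 1.

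The comparison of SA with silwet asks whether the hormone changed these transcripts. With all 18 arrays, 0 of 19 members were called at an adjusted p under 0.05 in limma, a linear model with a moderated spread, and 0 had an unadjusted p under 0.05. Over all 22746 probe sets limma called 0 (0%), and 1.61% had an unadjusted p under 0.05. The members' median difference was -0.00 log2, against -0.01 over all probe sets. Among the clearly measured members the difference ran from -0.20 (SEC5A) to 0.25 log2 (VPS2.2). For this difference over all blocks, a 2-fold change in either direction lay outside the 95% interval for 17 of these 17, and a 1.5-fold change for 15. These intervals hold for the arrays as labelled, and they do not bound the difference within a single block.

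Values of single genes show how closely the treatments overlapped. SEC5A, the exocyst gene with the smallest p among the SEC genes, had a lowest, median and highest signal of 109, 160 and 218 in SA, against 137, 176 and 231 in silwet. Its mean was 160 ± 30.9 in SA and 183 ± 32.3 in silwet (SD, n = 9 arrays each), which is -0.20 log2 (SE 0.13, limma adjusted p = 1). The ranges overlapped over most of their length. VPS46.2 had 384, 526 and 708 in SA, against 409, 450 and 657 in silwet. Its log2 difference was 0.14 (SE 0.10, limma adjusted p = 1). RAB6A had 267, 321 and 417 in SA, against 297, 322 and 382 in silwet, a difference of -0.02 (SE 0.10). For this Golgi GTPase the 95% interval ran from -0.23 to 0.18 log2.

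Within the serial blocks, 3 SA arrays met 3 silwet arrays, and limma again called 0 of 19 members and 0 probe sets (0%) in each. An unadjusted p under 0.05 was reached by 2%, 1.57% and 2.84% of probe sets in blocks 1, 2 and 3, and 0 members were among them in any block. In block 1 the clearly measured members differed by -0.50 (VPS9B) to 0.45 log2 (SEC1B). SEC1B had signals of 85.7, 58.1 and 93.5 in SA arrays 28, 29 and 30, against 43.1, 59.0 and 71.9 in silwet arrays 19, 20 and 21, a difference of 0.45 (SE 0.27, limma adjusted p = 1). VPS9B had 27.8, 47.4 and 21.3 in SA, against 54.6, 35.5 and 40.8 in silwet, a difference of -0.50 (SE 0.26, limma adjusted p = 1). For both genes array 29 lay inside the silwet range, and for VPS9B the silwet array 20 was the lowest of its group.

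In blocks 2 and 3 no clearly measured member differed between the treatments by more than 0.52 log2. Among the SEC genes the smallest p in both blocks was that of SEC5A, which had 218, 156 and 145 in SA and 231, 184 and 168 in silwet in block 2, a difference of -0.18 (SE 0.22). In block 3 it had 109, 134 and 169 in SA and 137, 176 and 221 in silwet, a difference of -0.37 (SE 0.22, limma adjusted p = 1 in both). VPS46.2 had 598, 526 and 516 in SA and 500.3, 450 and 433.3 in silwet in block 3. All 3 of its SA signals there lay above all 3 silwet signals, with a difference of 0.25 (SE 0.17, limma adjusted p = 1). RAB6A differed by -0.02, -0.08 and 0.03 in blocks 1, 2 and 3 (SE 0.17 each). The test of whether the SA difference varied between blocks called 0 members and 0 probe sets (0%), with 1.8% of probe sets and 0 members at an unadjusted p under 0.05. The smallest p in each family was that of SEC1B, RAB6A and the low member VPS24.2 (limma adjusted p = 1 each).

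Leaving out arrays 29 (SA) and 20 (silwet) changed block 1, which then held 2 SA and 2 silwet arrays. Limma called 1651 probe sets (7.26%) and 1 of 19 members, VPS9B. Its signals were 27.8 and 21.3 in SA arrays 28 and 30, against 54.6 and 40.8 in silwet arrays 19 and 21, which is -0.96 on the log2 scale (SE 0.25, limma adjusted p = 0.0311). The 2 groups did not overlap, which carries little weight with 2 arrays on each side. Leaving out any array on its own gave VPS9B a difference between -0.82 and -0.24 and no call. Other members did not pass. SEC22 differed by 0.46 log2 (limma adjusted p = 0.0537), VPS20.1 by 0.76 (limma adjusted p = 0.0559) and VPS60.1 by 1.15 (limma adjusted p = 0.0965). VPS60.1 had 144 and 279 in SA arrays 28 and 30, against 58.6 and 138 in silwet arrays 19 and 21. The exocyst genes SEC10 and SEC15B differed by 0.94 and 0.70 (limma adjusted p = 0.13 and 0.149). The 2 arrays were left out for their SA marker signals, so that these p-values hold for arrays picked on a readout. The test between blocks called 164 probe sets (0.721%) and 0 members in that setting. Over all blocks limma called 0 members without these arrays, and 3 had an unadjusted p under 0.05, where 10.3% of all probe sets did. They were SEC22 at 0.19 log2 (limma adjusted p = 0.355), VPS20.1 at 0.28 (limma adjusted p = 0.421) and VPS46.2 at 0.21 (limma adjusted p = 0.458). Without arrays 20, 28 and 30 limma also called 0 members over all blocks.

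**Figure D2:**
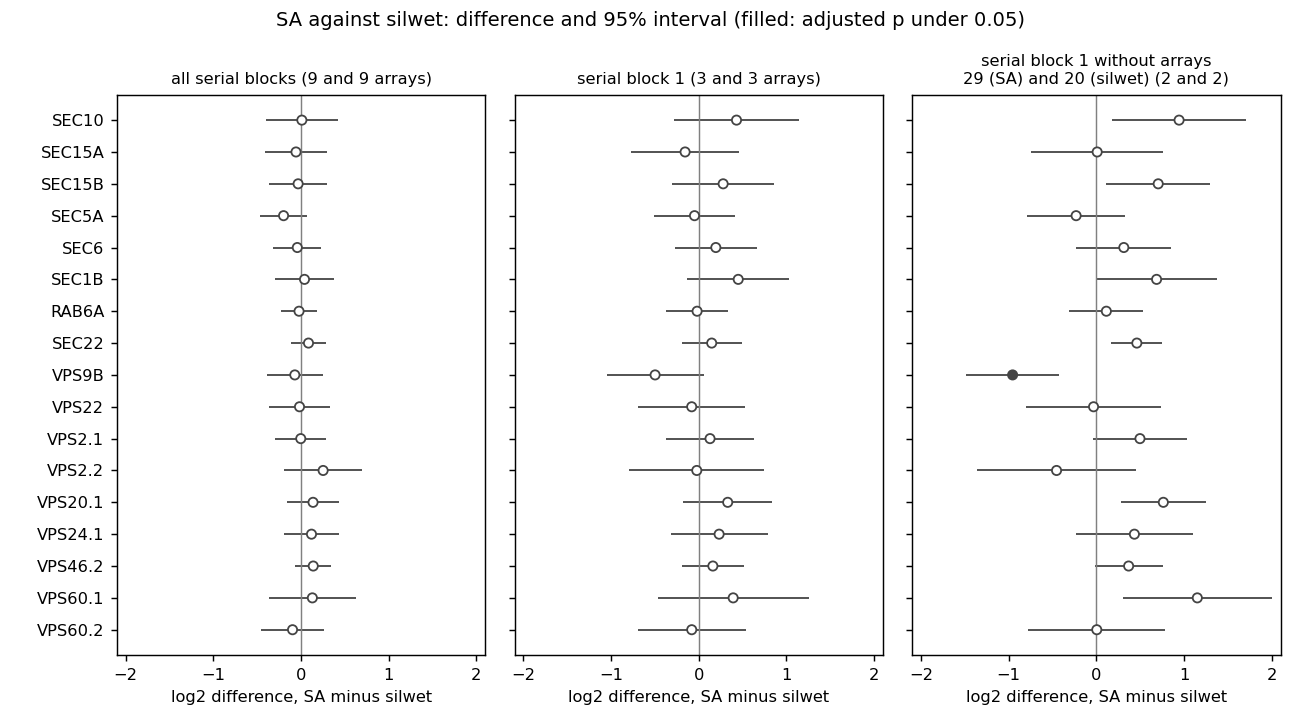
Log2 difference of SA minus silwet (points) with its 95% interval (lines) for the 17 clearly measured members, over all blocks (left), within block 1 (middle) and within block 1 without arrays 29 and 20 (right). Filled points have an adjusted p under 0.05, which only VPS9B at -0.96 in the right panel reaches.

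The serial blocks were compared with both treatments in the model. VPS60.1 fell in blocks 2 and 3 relative to block 1, and SEC1B fell in block 3. Between blocks 2 and 1 limma called 1 of 19 members, VPS60.1, and 990 probe sets (4.35%), of which 528 were lower in block 2 (2.32%) and 462 higher (2.03%). Between blocks 3 and 1 it called 2 of 19 members and 1546 probe sets (6.8%), of which 845 were lower in block 3 (3.71%) and 701 higher (3.08%). Among the 13648 probe sets at or above the level of the clearly measured members, 6.59% and 10.1% were called. The members' counts, 1 and 2 of 17 at that level, are near these shares and are no result about the list. With the fit restricted to those probe sets, limma called 9.73% and 13.2% of them, with 1 member in block 2 and 3 in block 3, where VPS9B was added (0.56, limma adjusted p = 0.0491). Of the 19 members 14 had a difference below 0 in block 2 and 15 in block 3. Their median differences were -0.16 and -0.17 log2, against 0.10 and 0.07 over all probe sets. The latter include many probe sets of low signal and are no matched background, so no shared fall of the list is read from these counts. Both comparisons use the same 6 arrays of block 1.

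VPS60.1 had a lowest, median and highest signal of 42.8, 56.7 and 80.5 in block 2 and 41.8, 56.9 and 69.2 in block 3, against 58.6, 141 and 279 in block 1. Only array 19, at 58.6, brought block 1 into the range of the others. The means were 57.9 ± 12.5 in block 2, 55.8 ± 9.82 in block 3 and 149 ± 78.2 in block 1 (SD, n = 6 each). The log2 difference was -1.22 in block 2 (SE 0.29, limma adjusted p = 0.0269) and -1.26 in block 3 (SE 0.29, limma adjusted p = 0.0162). For blocks 2 and 3 together against block 1 it was -1.44 among SA arrays and -1.04 among silwet arrays. By replicate number 1, 2 and 3 it was -0.52, -1.19 and -2.02. The sign was thus the same in both treatments and all 3 replicate numbers, and the size was not.

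These calls moved with the arrays that stood apart. Without arrays 20, 28 and 30 the difference of VPS60.1 was -0.64 in block 2 (limma adjusted p = 0.496) and -0.68 in block 3 (limma adjusted p = 0.368), and 0 members were called. Probe sets called fell to 98 (0.431%) in block 2 and 203 (0.892%) in block 3. Block 1 then held arrays 29, 19 and 21. The 3 arrays left out hold the 3 highest signals of VPS60.1, so its difference had to shrink and the lost call is no test. They were picked for their SA marker signals, so p-values without them, here and below, hold for arrays picked on a readout. The block 2 call of VPS60.1 was also lost without array 20, 21, 23, 24, 30, 31 or 33, with differences of -1.22 to -0.997 and limma adjusted p of 0.0533 to 0.0829. Of the single arrays, only array 20 ended the block 3 call when left out (-1.09, limma adjusted p = 0.0505). Without the 6 replicate 3 arrays the differences were -0.82 and -0.88, and neither was called (limma adjusted p = 0.484 and 0.33). The block 2 call was also lost without the replicate 2 arrays (-1.26, limma adjusted p = 0.0605). So it was in a fit without the intensity trend (-1.22, limma adjusted p = 0.0571). Without arrays 20 and 29 VPS60.1 was called in both blocks, at -1.24 and -1.29.

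SEC1B had signals of 26.6 to 57.6 in block 3 with a median of 42.2, and 43.1 to 93.5 in block 1 with a median of 65.4. The ranges overlapped between 43.1 and 57.6. The mean signal was 42.3 ± 11.9 in block 3 and 68.5 ± 18.9 in block 1 (SD, n = 6 each), and the difference -0.70 log2 (SE 0.19, limma adjusted p = 0.0406). It was -1.11 among SA arrays and -0.29 among silwet arrays, and -0.77, -0.74 and -0.59 in replicates 1, 2 and 3. The call was lost without array 20, 21, 22, 23, 24, 25, 26, 28, 30, 33, 34 or 35, with differences of -0.71 to -0.59 and limma adjusted p of 0.0514 to 0.116. Leaving out replicate 1, 2 or 3 also ended it (limma adjusted p = 0.141, 0.165 and 0.239). So did a fit without the intensity trend (limma adjusted p = 0.0624). Without arrays 20, 28 and 30 the difference was -0.48 (limma adjusted p = 0.545). In block 2 SEC1B averaged 51.9 ± 5.67 (SD, n = 6), a difference of -0.36 from block 1 (limma adjusted p = 0.304).

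**Figure D3:**
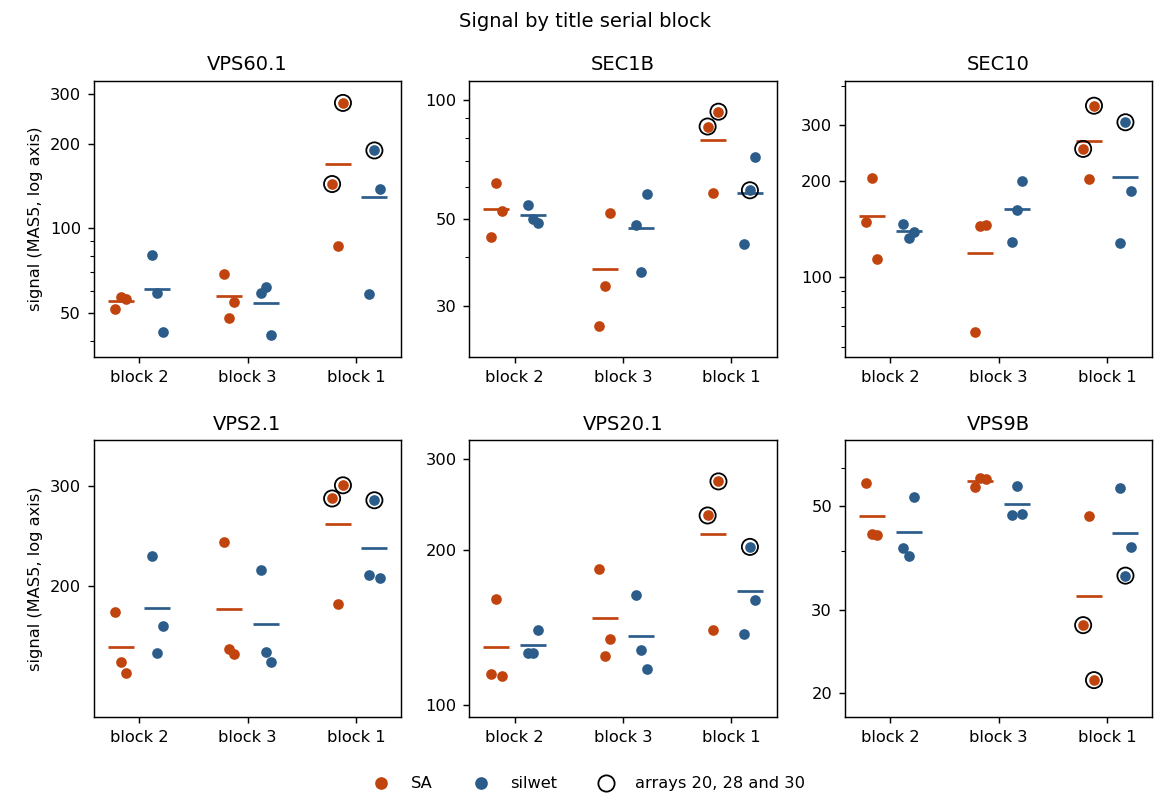
MAS5 signal (log axis) of 6 members in serial blocks 2, 3 and 1, with SA arrays left of silwet arrays in each block, bars at the mean of 3 arrays and rings around arrays 20, 28 and 30. VPS60.1 lies at 41.8 to 80.5 in blocks 2 and 3 and reaches 279 in block 1, while VPS9B has its lowest signals, 21.3 and 27.8, in ringed arrays of block 1.

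Other members gave block differences that did not pass the test with all 18 arrays and no replicate term. In the exocyst, SEC10 averaged 148 ± 30.5 in block 2, 141 ± 43.9 in block 3 and 237 ± 81.0 in block 1 (SD, n = 6 each). Its differences were -0.63 (limma adjusted p = 0.137) and -0.74 (limma adjusted p = 0.0711). SEC15B differed by -0.37 and -0.49 (limma adjusted p = 0.288 and 0.135), while its paralogue SEC15A differed by 0.05 and -0.02. At endosomes, VPS9B averaged 45.7 ± 6.69 in block 2, 53.3 ± 4.34 in block 3 and 37.9 ± 12.3 in block 1 (SD, n = 6 each), with differences of 0.33 (limma adjusted p = 0.328) and 0.56 (limma adjusted p = 0.0798). It was the member with the largest difference above 0. The ESCRT-III genes VPS2.1 and VPS20.1 differed by -0.53 and -0.51 in block 2 (limma adjusted p = 0.0832 and 0.0967) and by -0.48 and -0.40 in block 3 (limma adjusted p = 0.098 and 0.171). VPS22, the ESCRT-II subunit, differed by 0.04 in both blocks, and RAB6A by -0.15 and -0.03. An unadjusted p under 0.05 was reached by 5 members in block 2 and 8 in block 3, where 21.2% and 23.2% of all probe sets reached it.

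Without arrays 20 and 29 limma called 3 members lower in block 2 and 3 lower and 1 higher in block 3. In block 2 they were VPS2.1 (-0.56), VPS20.1 (-0.58) and VPS60.1 (-1.24), among 2055 probe sets called (9.03%). In block 3 they were SEC1B (-0.79), SEC15B (-0.59) and VPS60.1 (-1.29), with VPS9B higher (0.65), among 2441 probe sets called (10.7%). Leaving out array 29 on its own gave 4 members in block 2 and 7 in block 3, with 3130 and 3571 of 22746 probe sets called. Leaving out array 19 gave 2 and 4 members, with 1737 and 2411 of 22746 probe sets called. Calls thus rose over all probe sets too, and no result about the members is read from these counts. For VPS60.1 array 29, at 86.7, was the lowest SA array of block 1 and array 19, at 58.6, the lowest silwet array. Its difference therefore had to grow without either. The 3′ to 5′ signal ratio of the ubiquitin control, a measure of RNA quality, averaged 3.15 ± 0.361 in block 2, 3.15 ± 0.454 in block 3 and 2.82 ± 0.395 in block 1 (SD, n = 6 each). The actin ratio ran the other way, with 0.926 ± 0.206, 0.791 ± 0.160 and 1.03 ± 0.196 in blocks 2, 3 and 1, and so did the GAPDH ratio, with 1.05 ± 0.124, 1.05 ± 0.0926 and 1.16 ± 0.103 (SD, n = 6 each). Their part in the block differences was not tested. The plot of block differences shows both settings for every clearly measured member.

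**Figure D4:**
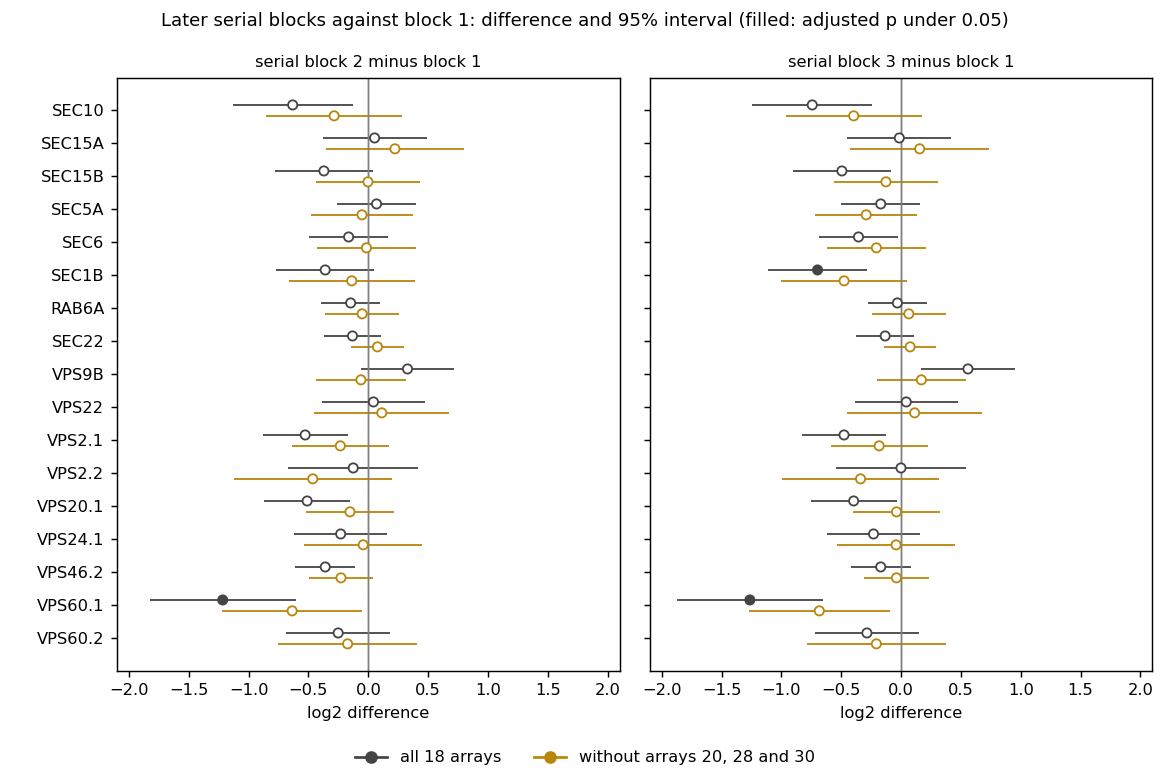
Log2 difference of serial block 2 (left) and block 3 (right) from block 1 with its 95% interval for the 17 clearly measured members, with all 18 arrays (dark) and without arrays 20, 28 and 30 (gold). Filled points have an adjusted p under 0.05, namely VPS60.1 at -1.22 and -1.26 and SEC1B at -0.70, and 0 gold points are filled.

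Blocks 3 and 2 could not be separated in these genes. Limma called 0 of 19 members and 0 probe sets (0%), with 816 (3.59%) and 0 members at an unadjusted p under 0.05. VPS46.2 averaged 504 ± 58.9 in block 3 and 442 ± 52.4 in block 2 (SD, n = 6 each), a difference of 0.19 (SE 0.12). SEC1B differed by -0.34 (SE 0.19) and RAB6A by 0.12 (SE 0.12), each with a limma adjusted p of 1. For 17 of 17 clearly measured members a 2-fold change lay outside the 95% interval.

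Replicate numbers were compared next, with treatment and block in the model. Replicate 1 had higher signals of 3 ESCRT genes than replicates 2 and 3, namely VPS22 of ESCRT-II and VPS24.1 and VPS60.2 of the ESCRT-III group. These are 3 of 19 members, and limma called 1776 of all probe sets (7.81%), of which 736 were higher in replicate 1 (3.24%) and 1040 lower (4.57%). Among probe sets at or above the level of the clearly measured members 8.69% were called, or 10% with the fit restricted to them. The direction of those calls depended on the scaling. Of the probe sets called, 41.4% were higher in replicate 1 with the deposited scaling, 55.6% after quantile normalization and 54.5% after median centring. The 3 members were higher under each of the 3 scalings. An unadjusted p under 0.05 was reached by 7 members, where 25.5% of all probe sets reached it, and the members' median difference was 0.06 log2, against -0.08 over all probe sets.

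In replicate 1 the lowest, median and highest signals of VPS22 were 81.1, 99.5 and 119. They were 62.0, 71.5 and 95.1 in replicate 2 and 63.6, 65.7 and 77.9 in replicate 3. Replicate 1 lay wholly above replicate 3 and overlapped replicate 2. The means were 102 ± 14.4, 75.5 ± 13.9 and 67.7 ± 5.30 in replicates 1, 2 and 3 (SD, n = 6 each), and replicate 1 was 0.51 log2 above replicates 2 and 3 (SE 0.12, limma adjusted p = 0.0246). For VPS24.1 they were 116, 128 and 170 in replicate 1, with 79.9, 94.3 and 115 in replicate 2 and 86.2, 95.7 and 128 in replicate 3. Its log2 difference was 0.49 (SE 0.11, limma adjusted p = 0.0175), with means of 137 ± 23.9, 95.2 ± 13.5 and 99.7 ± 14.8 (SD, n = 6 each). Every replicate 1 signal of VPS24.1 lay above every replicate 2 signal. VPS60.2 had 56.9, 80.3 and 91.3 in replicate 1, with 48.1, 60.23 and 72.5 in replicate 2 and 39.5, 50.3 and 60.9 in replicate 3. Its log2 difference was 0.51 (SE 0.12, limma adjusted p = 0.0211), and array 31, at 56.9, was the only replicate 1 array within the range of replicate 3.

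The 3 differences had the same sign in both treatments and in all 3 serial blocks. Among SA arrays they were 0.58, 0.59 and 0.51 for VPS22, VPS24.1 and VPS60.2, and among silwet arrays 0.45, 0.39 and 0.50. By block they were largest in block 3, at 0.83, 0.75 and 0.82, with 0.19, 0.38 and 0.20 in block 2 and 0.52, 0.34 and 0.49 in block 1. All 3 calls were lost without array 34 (SA) or array 25 (silwet), the replicate 1 arrays of block 3. Without array 34 the differences were 0.44, 0.40 and 0.42 (limma adjusted p = 0.0809, 0.0556 and 0.0672), and without array 25 they were 0.46, 0.47 and 0.47 (limma adjusted p = 0.0851, 0.058 and 0.0734). VPS22 was also lost without array 28 (0.50, limma adjusted p = 0.0596). Without arrays 20, 28 and 30 VPS24.1 and VPS60.2 were called at 0.51 and 0.52, VPS2.1 was called too at 0.42, and VPS22 was at 0.50 (limma adjusted p = 0.0536). In that setting limma called 1841 probe sets (8.09%).

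**Figure D5:**
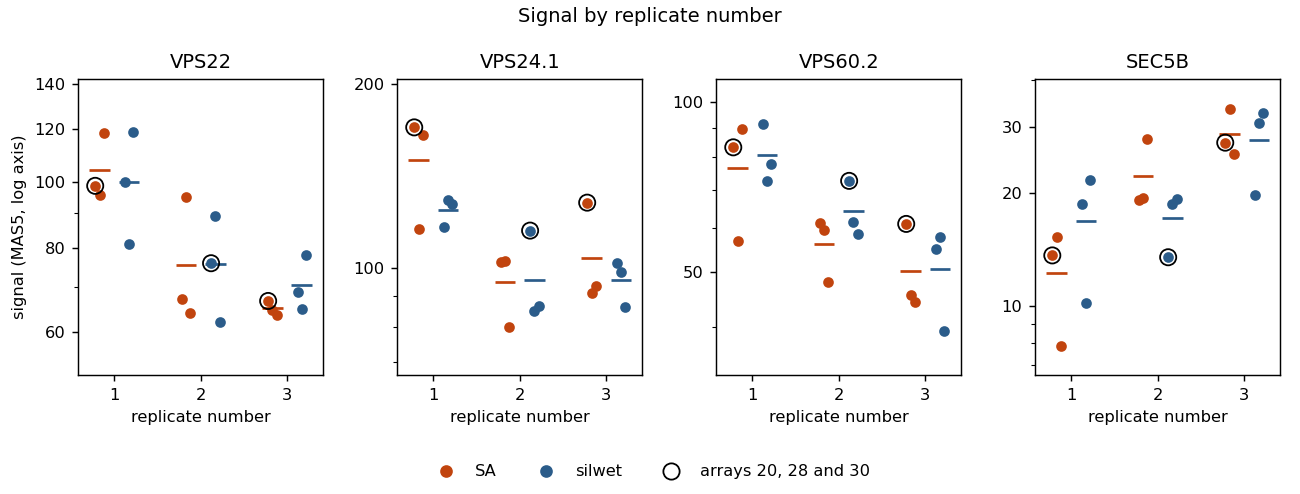
MAS5 signal (log axis) of VPS22, VPS24.1, VPS60.2 and the low member SEC5B by replicate number, with SA arrays left of silwet arrays, bars at the mean of 3 arrays and rings around arrays 20, 28 and 30. The first 3 genes average 102, 137 and 78.5 in replicate 1 and at most 75.5, 99.7 and 60.14 in replicates 2 and 3, and SEC5B averages 14.6 in replicate 1 and 28.2 in replicate 3.

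Other members did not pass in this comparison. The low exocyst member SEC5B averaged 14.6 ± 5.14 in replicate 1, 19.7 ± 4.63 in replicate 2 and 28.2 ± 5.19 in replicate 3 (SD, n = 6 each), a difference of -0.75 (SE 0.22, limma adjusted p = 0.0502). SEC10 differed by -0.42 (limma adjusted p = 0.18), VPS2.1 by 0.34 (limma adjusted p = 0.104) and RAB6A by 0.19 (limma adjusted p = 0.17). The other ESCRT-III genes differed by -0.31 (VPS2.2) to 0.08 log2 (VPS20.1) among the clearly measured ones. Measures of the RNA and of the low signals moved with the replicate number. The ubiquitin 3′ to 5′ ratio averaged 3.37 ± 0.384, 2.95 ± 0.431 and 2.80 ± 0.190 in replicates 1, 2 and 3 (SD, n = 6 each). The actin ratio averaged 0.947, 0.889 and 0.914 and the GAPDH ratio 1.07, 1.15 and 1.04 in the same order. Signals under 16 made up 37.6% ± 1.07, 35.9% ± 1.09 and 35.0% ± 1.35 of probe sets in replicates 1, 2 and 3 (SD, n = 6 each). Their part in the differences of VPS22, VPS24.1 and VPS60.2 was not tested.

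Between replicates 3 and 2 limma called 0 of 19 members and 0 probe sets (0%), with 1176 probe sets (5.17%) at an unadjusted p under 0.05. The exocyst subunit SEC6 was the 1 member among these, with 212 ± 41.7 in replicate 3 and 170 ± 33.4 in replicate 2 (SD, n = 6 each), a difference of 0.32 (SE 0.13, limma adjusted p = 0.926). VPS60.2 differed by -0.26 (SE 0.13, limma adjusted p = 0.961) and RAB6A by -0.15 (SE 0.10, limma adjusted p = 0.962).

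Paralogues were compared directly by the log2 ratio of their signals, and no difference passed after adjustment. The log2 ratio of VPS60.1 to VPS60.2 averaged -0.04 ± 0.25 in blocks 2 and 3 (SD, n = 12) and 0.93 ± 0.96 in block 1 (SD, n = 6). The difference of -0.97 had a two-sided exact permutation p of 0.00786, or 0.0708 adjusted over 9 tests of 3 paralogue pairs chosen after their values were seen. The ratio of VPS2.1 to VPS2.2 was 0.65 log2 higher in replicate 1 than in replicates 2 and 3 (two-sided exact permutation p = 0.0392, adjusted 0.145).

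Other genes of the same pathways were taken from a list of 193 symbols outside the naming rule, of which 13 had a probe set of their own. Limma called 0 of 13 in the 4 comparisons of SA with silwet and in that between blocks, and 0 between blocks 2 and 1, blocks 3 and 2 and replicates 3 and 2. Between blocks 3 and 1 it called 2 of 13, both lower in block 3, where 6.8% of all probe sets were called and 10.1% of those at or above a mean log2 signal of 4.31. They were KEU, the gene of KEULE and thus the named relative of SEC1B, at -0.84 (SE 0.21, limma adjusted p = 0.0269), and ELC, an ESCRT-I subunit that binds ubiquitin, at -0.60 (SE 0.16, limma adjusted p = 0.0297). Without arrays 20, 28 and 30, where 203 probe sets were called, KEU was at -0.34 (limma adjusted p = 0.567) and ELC at -0.34 (limma adjusted p = 0.528). In replicate 1 it called 2 of 13 higher, where 7.81% of all probe sets were called and 8.69% of those at that level. They were SNF7.1, which encodes the ESCRT-III core subunit, at 0.44 (SE 0.12, limma adjusted p = 0.0413), and ARLA1D, an ARF-like GTPase, at 0.49 (SE 0.12, limma adjusted p = 0.0271). Both were called without arrays 20, 28 and 30 too, at 0.50 and 0.51.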

How the data were processed

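The deposited table holds a linear signal intensity for each probe set. The authors computed it with MAS5, according to the submitters' processing notes, with a version not given in the sources used here. The 2% trimmed mean was 100.01 in every column, and the values were used as scaled. Scaling of this kind hides a change in total RNA, and MAS5 signal is least precise at low values. Of the columns, 0 lacked a sample, and 0 values were missing among 22810 probe sets. After removal of 64 control probe sets, the log2 of the deposited signal was taken with no pseudocount and no filter.

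Members were found by symbol in the platform annotation, which names 1 gene for 13513 probe sets, several for 503 and none for 8730. All 19 symbols stood unchanged in the TAIR10.1 gene table. No sequence is shown.

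One limma model (3.58.1, R 4.3.3, lmFit and eBayes with intensity trend) over all 22746 probe sets and 18 arrays held 1 mean per treatment and serial block. Replicate comparisons added the replicate number, and p-values were adjusted by Benjamini-Hochberg within each of 10 comparisons. Named genes were up to 4 called members of each symbol family, or the one with the smallest p, with SYP121, EXO70B2 and other fixed names that proved not to be members. Further members were named after their values were seen. Members, lists and comparisons were chosen with earlier results of these data known. Of the 193 listed symbols, 2 matched another gene and were dropped, and 1 of the 13 found was low. The alternatives were a level filter, a pseudocount of 16, quantile normalization, median centring, no trend, array weights, arrays or replicate numbers left out, a replicate block and no block term. Leaving out single arrays other than 20 was added after seeing the data. Permutation tests used scipy 1.17.1.

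The code was tested on simulated data with 200 of 22746 probe sets changed. The shares recovered at 1.5-fold, 2-fold and 4-fold were 42.5%, 83.5% and 99% for SA over all blocks and 0%, 35% and 92% for SA within block 1. They were 10%, 71% and 95.5% between blocks 2 and 1, and 28%, 78% and 98% for replicate 1. Precision is limited by the number of arrays.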

Additional observations from a re-analysis of the deposited data

Results flagged for a closer look

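In 152 groups of arrays (19 members by treatment, serial block and replicate number), 8 held an array far from the others, where about 1 in 20 groups is flagged by chance. The groups reuse the same arrays. Each value is the gap to the nearest array as a share of the group's log2 range. Array 20, labelled silwet, was the highest in 4 of them. For SEC22 its signal was 481, against 298 to 372.7 in the other silwet arrays (gap 0.533) and 328 to 366 in the other replicate 2 arrays (gap 0.716). In replicate 2 VPS2.1 had 283 in array 20, against 147 to 186 (gap 0.642), and SEC15B had 108, against 59.9 to 74.0 (gap 0.642). VPS9B was lowest in array 30 (SA) among the replicate 3 arrays, at 21.3 against 40.8 to 57.0 (gap 0.661). The other 3 concern the low members. VPS24.2 had 3.53 in array 31, against 0.18 to 0.38 in the other SA arrays (gap 0.741) and 0.19 to 0.37 in the other block 2 arrays (gap 0.761). SEC5B had 7.87 in array 34, against 19.3 to 32.7 in the other block 3 arrays (gap 0.63).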

How the results depend on the processing

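No called result changed sign under any alternative run for it. For SA against silwet over all arrays and in blocks 2 and 3, limma called 0 members under every alternative. In block 1 it called 1 member without arrays 20 and 29, and 0 otherwise. Probe sets called in block 1 were 0 to 747 without a replicate number (747 without replicate 2), 0 to 1 without an array and 1651 without arrays 20 and 29. In block 2 they were 0 to 1 without a replicate number, and in block 3 and between blocks 3 and 2 0 to 1 without an array. The test between blocks gave 0 to 47 without a replicate number, 164 without arrays 20 and 29 and 1 without arrays 20, 28 and 30.

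Between blocks 2 and 1 the members called were 0 without the intensity trend, 5 with array weights, 0 to 1 without a replicate number, 0 to 4 without an array (4 without array 29), 3 without arrays 20 and 29 and 0 without arrays 20, 28 and 30. Probe sets called, of 22746, were 479, 2777, 0 to 755, 338 to 3130, 2055 and 98 in that order. Between blocks 3 and 1 the members called were 1, 8, 0 to 1, 0 to 7, 4 and 0 in the same order, and the probe sets 893, 3330, 34 to 1018, 661 to 3571, 2441 and 203. The highest single-array counts came without array 29 and the lowest probe set counts without array 30. For replicate 1, 5 members and 2588 probe sets (11.4%) were called without arrays 20 and 29, and 0 to 5 members (0 without array 25 or 34) and 543 to 2343 probe sets without an array. Between replicates 3 and 2 the probe sets called were 8 with the level filter, 11 with array weights, 0 to 8 without an array and 2 without arrays 20, 28 and 30.

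Deviations of same-number SA and silwet arrays correlated above 0.1 in 6 of 9 pairs, including 0.66, 0.32 and 0.64 in block 3. Pairing was to be assumed only if every pair did, and 3 did not, among them arrays 29 and 20 at -0.70, whose labels are in doubt. The main SA and block fits therefore leave the replicate number out. Differences between replicate numbers then widen the spread, so those fits can miss changes. With the replicate block limma called 2 members between blocks 2 and 1 (1311 probe sets), VPS60.1 and also VPS2.1 (-0.53, limma adjusted p = 0.0455). It called 3 between blocks 3 and 1 (2014 probe sets), VPS60.1, SEC1B and also SEC10 (-0.74, limma adjusted p = 0.0476), and 0 in the other comparisons that allow it. The cause of these shifts was not tested.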
